A study of Mus musculus with 3 samples.

Results

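The 7 genes described here are Il1a and Il1b, the 2 interleukin 1 ligands that act through the interleukin 1 receptor, Il1rn, Il1r2, Il1rap, Il18 and Il18bp. They were chosen by symbol among the 55357 features of 3 matrices of UMIs (unique molecular identifiers, each standing for 1 captured RNA molecule), and all 7 were found, each once. The matrices are droplet single-cell libraries (10x Genomics, 3′ ends) of wild-type C57BL/6 mouse lung. In 1 group the trachea received PBS, in another LPS (bacterial lipopolysaccharide, 4 mg/kg), and in the third the same LPS dose together with Reg3g, a secreted C-type lectin (6 µg), and cells were taken 24 h later. The cells had been sorted as live CD45+ Ly6G- F4/80+ and CD11b+ or CD11c+ to enrich macrophages. Cells of 3 mice were pooled into the 1 library of each group. Differences between groups therefore have no replicate check and no test, and the intervals in parentheses are 95% intervals of counting error only.

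Interleukin 1 alpha and interleukin 1 beta both signal through a receptor that needs the accessory chain encoded by Il1rap, and they drive fever, endothelial activation and neutrophil recruitment. Interleukin 1 alpha is active as a precursor and can act as an alarmin when cells die, whereas pro-interleukin 1 beta and pro-interleukin 18 have to be cleaved, chiefly by caspase 1 of an inflammasome, before release. The system has built-in brakes: the receptor antagonist encoded by Il1rn occupies the receptor without signalling, the decoy receptor encoded by Il1r2 captures ligand, and the secreted protein encoded by Il18bp neutralises interleukin 18. RNA was measured here, so neither cleavage nor release of a ligand is seen.

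On the GRCm38 build the 7 genes lie at chr2:129299610-129309972 (Il1a, minus strand), chr2:129364570-129371139 (Il1b, minus strand), chr2:24336853-24351494 (Il1rn, plus strand), chr1:40074079-40125231 (Il1r2, plus strand), chr16:26581704-26730117 (Il1rap, plus strand), chr9:50554827-50581840 (Il18, plus strand) and chr7:102014885-102018690 (Il18bp, minus strand), all annotated as protein coding in GENCODE M21. Except for Il1rn, each overlaps at least 1 gene of the opposite strand, such as Il1bos at Il1b, Bco2 and Tex12 at Il18 and Numa1 at Il18bp. The sources used here do not say whether strand was used in counting, so reads of such partners cannot be told apart from the member's with certainty. Over all barcodes Il1bos had 30, 41 and 55 UMIs in PBS, LPS and LPS with Reg3g, against 16163, 137612 and 94797 for Il1b. Numa1 is the one partner with more UMIs than the member, with 4415, 3415 and 3072 against 141, 543 and 347 for Il18bp. Gm14023, on the opposite strand at Il1a, had 133, 406 and 540 UMIs against 838, 21233 and 18996 for Il1a. Gm37347 overlaps Il1r2 on the same strand, with 62, 21 and 22 UMIs against 780, 1507 and 980 for Il1r2. The 250 bases before the RefSeq start site (GRCm38.p6) are printed for 4 members whose levels went different ways after LPS, Il1a and Il1b as the 2 ligands that were higher, Il18 as the one that was lower, and Il18bp as its brake, 5′ to 3′ on the gene's strand, with capitals for a motif match.
Il1a, chr2:129309973-129310222, minus strand: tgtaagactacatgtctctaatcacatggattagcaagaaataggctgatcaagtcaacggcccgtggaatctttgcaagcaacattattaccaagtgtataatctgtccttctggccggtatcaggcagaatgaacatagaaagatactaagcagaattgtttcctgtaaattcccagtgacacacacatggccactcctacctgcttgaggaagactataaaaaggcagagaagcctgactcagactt
Il1b, chr2:129371140-129371389, minus strand: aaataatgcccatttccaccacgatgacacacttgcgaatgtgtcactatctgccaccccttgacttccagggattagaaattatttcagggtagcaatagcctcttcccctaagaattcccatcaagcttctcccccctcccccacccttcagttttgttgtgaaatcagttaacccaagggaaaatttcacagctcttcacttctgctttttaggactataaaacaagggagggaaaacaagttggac
Il18, chr9:50554450-50554699, plus strand: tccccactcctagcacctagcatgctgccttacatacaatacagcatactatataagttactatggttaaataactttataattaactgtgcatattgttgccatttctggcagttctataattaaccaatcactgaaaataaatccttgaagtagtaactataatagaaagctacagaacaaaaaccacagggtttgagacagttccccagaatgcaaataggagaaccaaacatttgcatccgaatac
Il18bp, chr7:102018233-102018482, minus strand: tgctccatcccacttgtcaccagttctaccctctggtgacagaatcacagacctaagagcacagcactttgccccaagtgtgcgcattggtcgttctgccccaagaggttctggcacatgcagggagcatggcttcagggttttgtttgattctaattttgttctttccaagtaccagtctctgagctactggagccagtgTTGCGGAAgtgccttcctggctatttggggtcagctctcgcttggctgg
The motifs searched on both strands of the 300-base windows (250 bases before the start site and 50 after) were GGGA and TTCC with 2 bases between for NF-kB, GAAA and GAAA with 2 bases between for interferon response factors, TTCNNNGAA for STAT, TTGCNNAA for C/EBP and GAGGAAGT for PU.1. They are held by 1.47%, 3.44%, 8.30%, 10.8% and 3.20% of all 32851 windows of the RefSeq table. All 7 members matched an entry (9 windows, since Il1rn has 3 start sites), and 3 windows held a match: a C/EBP match at Il18bp, a STAT match at Il1r2 and an interferon response match after the start site of Il1rap. The Il1a, Il1b, Il1rn and Il18 windows held none of these letters, which says nothing about sites outside them.

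After filtering, 7860, 13015 and 9281 cells remained in PBS, LPS and LPS with Reg3g, with medians of 5923.5, 4216 and 5459 UMIs, of 52354207, 70474636 and 60942042 UMIs deposited. Between 28 and 37 barcodes were shared by each pair of libraries, at most 0.437% of the smaller one. Cells were grouped into 23 clusters and these into classes named from marker lists; levels are UMIs summed over a class scaled to 1e6 UMIs of that class (CPM). The alveolar-macrophage-like class, which detected all 14 of its markers in every library, was made of different clusters: 1 cluster led by Fabp1 and Krt19 held 93.8% of its PBS cells, and 3 clusters, led by Car4 and Lcn2, by Cxcl3 and Cxcl1, and by Tnf and Ereg, held 44.5%, 29.1% and 22.7% of its LPS cells. A further cluster led by Inhba and Fstl1 (1157 LPS and 710 LPS with Reg3g cells, 1 PBS cell) scored highest for alveolar macrophage markers and held UMIs of all 14, but its 10 leading genes held 1 marker of another class (Ccl17) and none of that class, and it is given apart as the set-aside cluster. Despite the Ly6G gate, 152 and 150 neutrophil-like cells were present after LPS and with Reg3g (12 in PBS, too few for a level), and the summed level of 12 neutrophil markers over all cells was 191, 629 and 1213 CPM, with none of them at 0.

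Il1b, the ligand whose precursor awaits inflammasome cleavage, stood highest in type 2 dendritic cells, monocytes and interstitial macrophages in PBS lung and was higher in all 8 classes with a level in both libraries after LPS. In alveolar-macrophage-like cells it stood at 50.8 CPM in PBS, 1101 in LPS and 915 in LPS with Reg3g, and in classical-monocyte-like cells at 636 CPM in PBS, 3083 in LPS and 2439.5 in LPS with Reg3g. The highest PBS level, 1557 CPM (1511 to 1605), was in type-2 conventional-dendritic-cell-like cells, followed by nonclassical-monocyte-like cells at 797 CPM, classical-monocyte-like cells and interstitial-macrophage-like cells at 548 CPM. Alveolar-macrophage-like cells had the lowest level of all 9 classes, below the 472 CPM of B-cell-like and 145 CPM of T-or-NK-like cells. After LPS the order was led by neutrophil-like cells at 6576 CPM (6379 to 6777), followed by classical-monocyte-like cells, type-2 conventional-dendritic-cell-like cells at 2711 CPM and nonclassical-monocyte-like cells at 2102 CPM, and the intervals of these neighbours did not overlap. The log2 ratio of LPS to PBS was 4.44 (4.36 to 4.52) in alveolar-macrophage-like cells, which is 21.7-fold, 2.28 (2.23 to 2.33) in classical-monocyte-like cells and 0.80 (0.73 to 0.87) in type-2 conventional-dendritic-cell-like cells. Thus the class with the lowest myeloid level in PBS had the highest ratio, while its LPS level, 1101 CPM, stayed below that of both monocyte classes and below the 1208 CPM of T, NK and B-cell-like cells, which should lack the gene.

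Il1a, the ligand that needs no cleavage, had a different distribution. After LPS its highest levels were in the set-aside cluster, neutrophil-like cells and alveolar-macrophage-like cells, while interstitial-macrophage-like cells stood at 129 CPM. In alveolar-macrophage-like cells it stood at 23.0 CPM in PBS, 459 in LPS and 394 in LPS with Reg3g, a log2 ratio of LPS to PBS of 4.32 (4.20 to 4.44). The set-aside cluster had the highest LPS level at 564 CPM (548 to 579.6), with neutrophil-like cells next at 470.0 CPM (419 to 526) and alveolar-macrophage-like cells at an interval that overlapped theirs. The 14 alveolar macrophage markers summed to 2536 CPM in neutrophil-like cells after LPS, against 12706 in alveolar-macrophage-like cells. The part of such RNA in the neutrophil-like Il1a level was not tested. Classical-monocyte-like cells had 6 Il1a UMIs in 1451 PBS cells, which is 1.02 CPM (0.376 to 2.23), and stood at 129 CPM after LPS, and nonclassical-monocyte-like cells at 24.8 CPM; T, NK and B-cell-like cells stood at 155 CPM. There were therefore 2.40 (2.35 to 2.46) Il1b UMIs per Il1a UMI in alveolar-macrophage-like cells after LPS, 24.0 (23.1 to 25.0) in classical-monocyte-like cells and 84.9 (67.1 to 109) in nonclassical-monocyte-like cells. The Il1a levels of both monocyte classes lay below the 155 CPM of T, NK and B-cell-like cells. The part of UMIs from other cells in the monocyte ratios was not tested. UMIs from 3′ ends are not scaled by transcript length and capture can differ between genes, so such ratios are read only between classes and libraries. In alveolar-macrophage-like cells the ratio was close in the 3 libraries, at 2.21, 2.40 and 2.32.

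**Figure D1:**
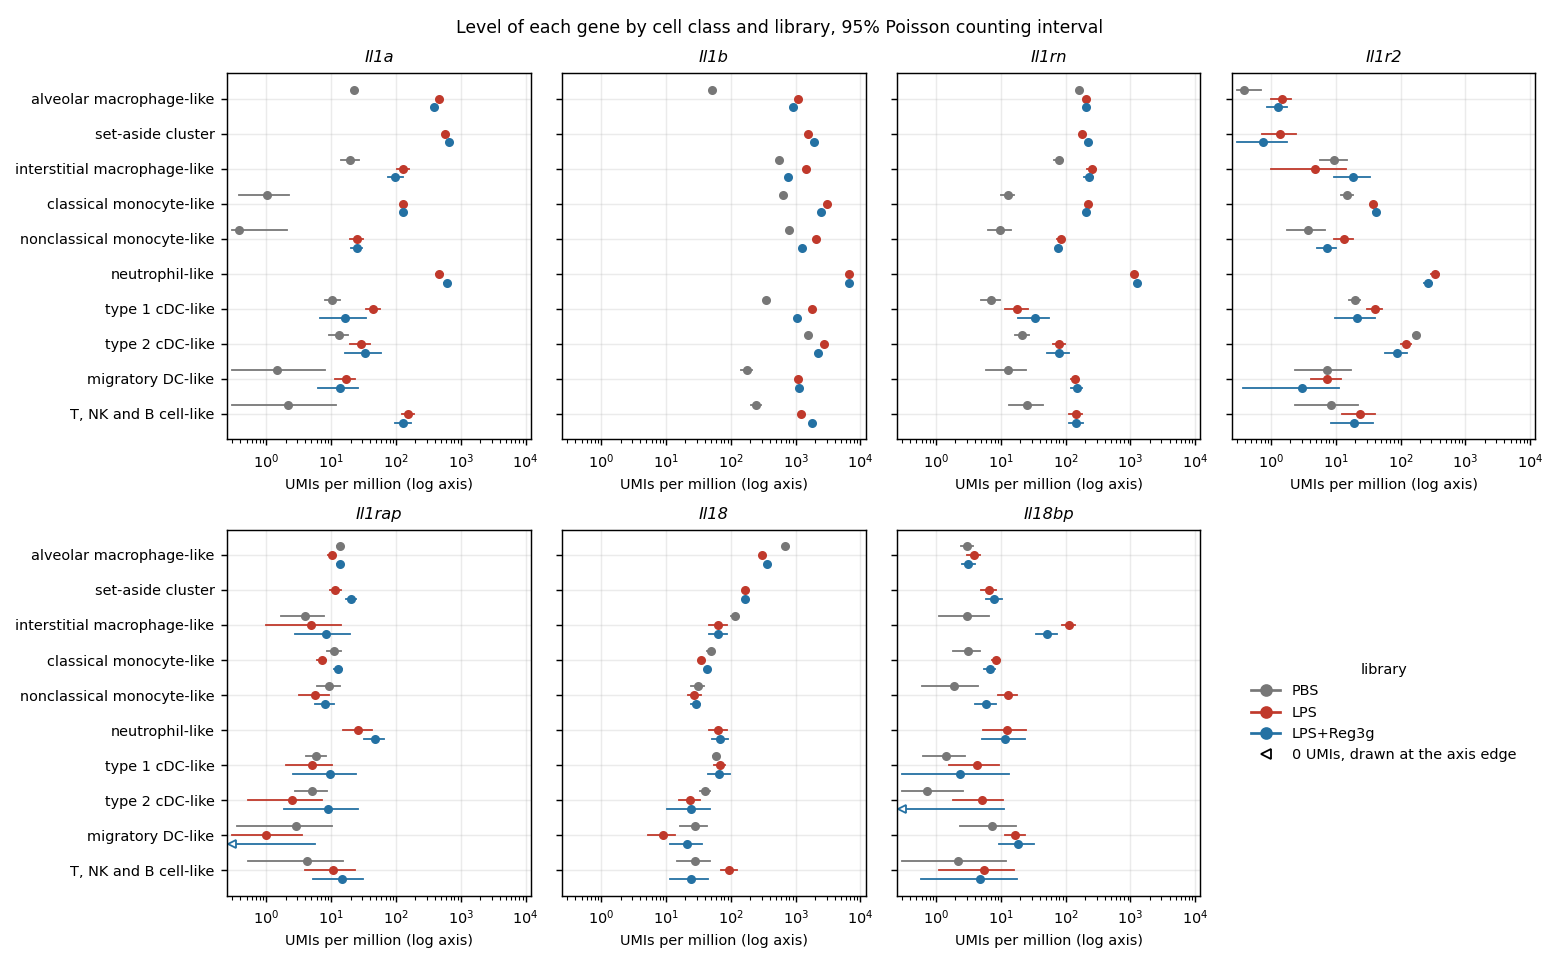
Level of each of the 7 genes in CPM (log axis) in each cell class with at least 50 cells, with 1 point per library and its 95% Poisson counting interval. Il1b and Il1a stand further right after LPS in every class drawn in all 3 libraries, Il18 stands furthest right in alveolar-macrophage-like cells, and Il1r2 stands at 0.390 to 1.46 in those cells.

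The ligands were uneven within a class. Among clusters of alveolar-macrophage-like cells after LPS, Il1b stood at 1474 CPM in the one led by Cxcl3 and Cxcl1, 1052 in the one led by Tnf and Ereg and 869 in the one led by Car4 and Lcn2, and Il1a at 578, 516 and 347. Of the clusters of classical-monocyte-like cells, the one led by Arg1 and Ccl2 had 4467 CPM of Il1b and 286 of Il1a, and the one led by Ly6c2 and Vcan 2618 and 48.5. The gap between these 2 clusters was thus wider for Il1a than for Il1b. A single cell of the classical-monocyte-like class held up to 185 Il1b UMIs in the LPS library. These clusters were formed with the 7 genes left out, but other genes of the same cells formed them, so their differences are a description.

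Cells of types that should lack Il1b also held its UMIs after LPS. With each cell thinned to 2000 UMIs, 62.9% (61.4 to 64.5) of alveolar-macrophage-like and 79.6% (78.3 to 80.8) of classical-monocyte-like cells of the LPS library had an Il1b UMI, and so did 54.1% (43.0 to 65.0) of the T, NK and B-cell-like cells, which should lack the gene. Cells under 2000 UMIs were left out of these shares, which were 93 of 178 lymphoid and 201 of 3895 alveolar-macrophage-like cells. The share of the deeper lymphoid cells that were kept is taken as background here, and may not hold for all lymphoid cells. The alveolar-macrophage-like share after LPS is not above background by this measure. Those of classical-monocyte-like and neutrophil-like cells, the latter 97.9% (92.5 to 99.7), lie above it. With Reg3g the alveolar-macrophage-like share, 59.6% (57.9 to 61.3), was above the lymphoid one, 43.8% (31.4 to 56.7). Before thinning the median depth was 1900.5 UMIs in these lymphoid cells and 5679 in alveolar-macrophage-like cells, the unthinned shares were 42.7% and 80.9%, and the median lymphoid cell held 0 Il1b UMIs. The lymphoid UMIs were concentrated, with 67.5% of them in the 10% of cells with the most and up to 50 in 1 cell; the part of free RNA or of attached cells in this was not tested. Il1b per Il1a was 7.79 (6.22 to 9.87) in lymphoid cells of the LPS library, an interval that holds the 6.44 of all its cells, and 13.5 (10.2 to 18.1) with Reg3g, where all cells had 4.97. For Il1a the share was 49.5% (47.9 to 51.2) in alveolar-macrophage-like and 18.8% (11.2 to 28.8) in lymphoid cells, and for Il18 42.8% (41.2 to 44.4) and 7.06% (2.63 to 14.7). Il1a and Il18 in alveolar-macrophage-like cells were therefore above the background, while the Il1a share of classical-monocyte-like cells, 14.8% (13.8 to 16.0), was not. In PBS the Il1b share was 6.89% (6.07 to 7.77) in alveolar-macrophage-like and 8.89% (3.92 to 16.8) in lymphoid cells, so Il1b in resting alveolar-macrophage-like cells was at background.

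**Figure D2:**
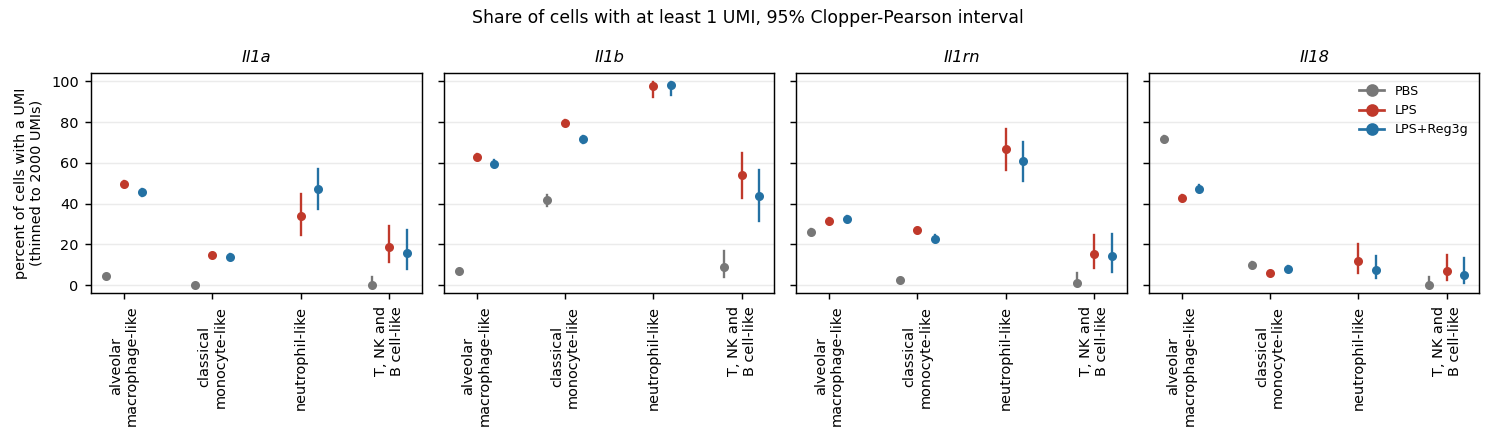
Share of cells with at least 1 UMI of Il1a, Il1b, Il1rn or Il18 after thinning each cell to 2000 UMIs, by class and library, with 95% Clopper-Pearson intervals. Cells under 2000 UMIs are left out, and classes with under 50 cells in a library before thinning are not drawn. For Il1b after LPS the alveolar-macrophage-like share of 62.9% lies inside the interval of the T, NK and B-cell-like cells, 43.0 to 65.0%.

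Il1rn, which encodes the receptor antagonist, was already made by alveolar-macrophage-like cells of PBS lung and differed little there after LPS. It stood at 159 CPM in PBS, 204 in LPS and 208 in LPS with Reg3g, a log2 ratio of LPS to PBS of 0.36 (0.30 to 0.42). In classical-monocyte-like cells it stood at 12.8 CPM in PBS, 224 in LPS and 206 in LPS with Reg3g, a ratio of 4.13 (3.80 to 4.48), or 17.5-fold. The monocyte class thereby came from far below the alveolar-macrophage-like class to slightly above it. Neutrophil-like cells had the highest levels, 1123 CPM (1043 to 1208) after LPS and 1245 CPM (1163 to 1332) with Reg3g, followed by interstitial-macrophage-like cells at 255 and 226 CPM, whose interval overlapped that of classical-monocyte-like cells after LPS. Within the classical-monocyte-like class the Arg1 and Ccl2 cluster held 474 CPM and the Ly6c2 and Vcan cluster 106 CPM after LPS. The PBS share of alveolar-macrophage-like cells with an Il1rn UMI, 25.9% (24.5 to 27.4), was above that of lymphoid cells, 1.11% (0.0281 to 6.04); after LPS these were 31.4% (29.9 to 32.9) and 15.3% (8.40 to 24.7).

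Set against Il1b, the antagonist gene Il1rn differed in opposite directions between PBS and LPS in the main classes. Alveolar-macrophage-like cells had 3.14 (2.95 to 3.33) Il1rn UMIs per Il1b UMI in PBS, 0.186 (0.180 to 0.192) after LPS and 0.227 (0.220 to 0.234) with Reg3g. In classical-monocyte-like cells the values were 0.0201 (0.0158 to 0.0253), 0.0726 (0.0704 to 0.0748) and 0.0843 (0.0811 to 0.0875). The PBS alveolar-macrophage-like class was the only one of those drawn with more Il1rn than Il1b UMIs. Mean Il1b per alveolar-macrophage-like cell, the denominator, was 0.403, 6.37 and 6.78 UMIs in the 3 libraries, beside 0.691, 3.76 and 6.28 per lymphoid cell. The 3 ratios of the class were not corrected for UMIs of either gene from other cells, whose part was not tested. With Reg3g the ratio was higher than with LPS alone in alveolar-macrophage-like, classical-monocyte-like, nonclassical-monocyte-like (0.0397 against 0.0616) and interstitial-macrophage-like cells (0.177 against 0.292), with intervals that did not overlap. In the set-aside cluster, at 0.115 and 0.116, and in neutrophil-like cells, at 0.171 and 0.185, the intervals overlapped.

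**Figure D3:**
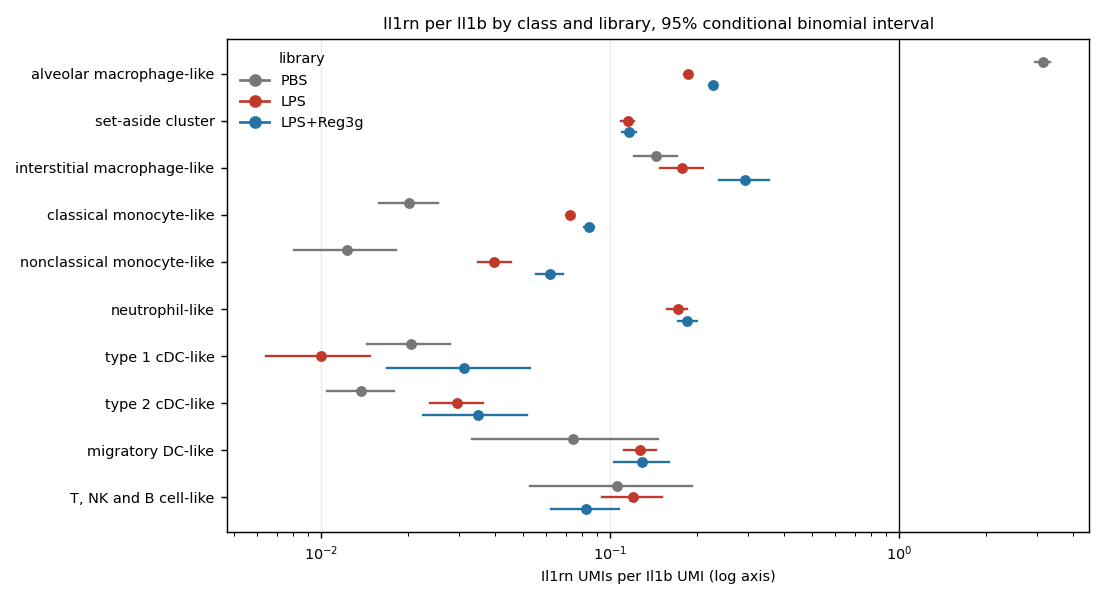
Il1rn UMIs per Il1b UMI (log axis) by class and library with 95% conditional binomial intervals of counting error; the vertical line marks equal numbers. The PBS alveolar-macrophage-like point at 3.14 is the one to the right of the line, and the monocyte-like classes stand further right after LPS than in PBS.

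How often a barcode with Il1b UMIs also held UMIs of Il1rn differed between classes. In thinned classical-monocyte-like cells of the LPS library an Il1rn UMI was seen in 30.5% of cells with an Il1b UMI and 12.3% of cells without, and with Reg3g in 28.4% and 8.56%. In alveolar-macrophage-like cells after LPS the shares were 34.2% and 26.7% for Il1rn and 57.7% and 35.6% for Il1a. T, NK and B-cell-like cells, which should lack these genes, had a wider gap after LPS, with 26.1% and 2.56% for Il1rn and 32.6% and 2.56% for Il1a, so such pairs of UMIs in a barcode are not read as made by 1 cell. The set-aside cluster with Reg3g had 32.4% and 37.5% for Il1rn, the other way round, and type-1 conventional-dendritic-cell-like cells after LPS 1.75% and 1.72%. For the decoy receptor Il1r2 the shares were 6.73% and 6.78% in classical-monocyte-like cells of the LPS library. Cells of a class share their library, and clusters within it differ, as shown above, so these shares are a description with no test.

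Il1r2, the decoy receptor, stood highest in type 2 dendritic cells and neutrophils, lower in type 1 dendritic cells and classical monocytes, and was nearly missing from alveolar macrophages. Type-2 conventional-dendritic-cell-like cells had 172 CPM (157 to 189) in PBS, 122 CPM (103 to 144) after LPS and 86.9 CPM (58.2 to 125) with Reg3g. These cells held 65.9% of all Il1r2 UMIs of the PBS library as 5.19% of its cells. Type-1 conventional-dendritic-cell-like cells stood at 19.7 CPM in PBS, 40.2 in LPS and 21.3 in LPS with Reg3g and held 15.1% of the PBS UMIs. Neutrophil-like cells stood at 341 and 264 CPM after LPS and with Reg3g, and classical-monocyte-like cells at 14.8 CPM in PBS, 37.8 in LPS and 41.2 in LPS with Reg3g, a log2 ratio of LPS to PBS of 1.35 (1.03 to 1.68). Within that class, the Ly6c2 and Vcan cluster had 52.2 CPM and the Arg1 and Ccl2 cluster 18.2 CPM after LPS, the reverse of the order for Il1a, Il1b and Il1rn. Alveolar-macrophage-like cells had 11, 33 and 32 Il1r2 UMIs in the 3 libraries, or 0.390 CPM in PBS, 1.46 in LPS and 1.27 in LPS with Reg3g.

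Il1rap, the accessory chain without which the receptor cannot signal, was low everywhere and lower after LPS in the main classes. It stood at 13.9 CPM in PBS, 10.2 in LPS and 14.0 in LPS with Reg3g in alveolar-macrophage-like cells and 11.3 CPM in PBS, 7.16 in LPS and 12.8 in LPS with Reg3g in classical-monocyte-like cells. The log2 ratios of LPS to PBS were -0.44 (-0.68 to -0.20) and -0.65 (-1.08 to -0.21). With Reg3g it was higher than with LPS alone in all 8 classes with more than 3 UMIs in at least 1 of the 2 libraries and none at 0, by 0.45 to 1.02 on the log2 scale, and the interval lay above 0 in 3 of them, the alveolar-macrophage-like, classical-monocyte-like and set-aside cells. The intervals of the alveolar-macrophage-like levels in PBS and with Reg3g overlapped. Neutrophil-like cells had the highest levels at 26.4 and 47.2 CPM, from 17 and 32 UMIs.

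Il18, the inflammasome-dependent cytokine that drives interferon gamma in T and NK cells, was foremost an alveolar macrophage gene and was lower in those cells after LPS. Alveolar-macrophage-like cells stood at 681 CPM (671 to 690.4) in PBS, 308 CPM (301 to 315) after LPS and 356 CPM (349 to 364) with Reg3g, ahead of each other class in each library with no overlap of intervals. The ratio of LPS to PBS was -1.14 (-1.18 to -1.10), or 2.21-fold lower. The level was uneven between clusters of the class: after LPS it was 567 CPM in the cluster led by Tnf and Ereg, near the 696 CPM of the main PBS cluster, against 243 and 224 CPM in the clusters led by Cxcl3 and by Car4 and 164 in the set-aside cluster. The 53 LPS cells that fell in the main PBS cluster had 726 CPM (614 to 853). The lower class level after LPS was therefore accompanied by another mix of clusters, and clusters were formed from the same cells. Classical-monocyte-like cells stood at 49.1 CPM in PBS, 34.8 in LPS and 43.0 in LPS with Reg3g, a ratio of -0.50 (-0.70 to -0.29), and nonclassical-monocyte-like cells at -0.16 with an interval that included 0. Over all cells the alveolar-macrophage-like class held 94.2%, 72.1% and 79.6% of the Il18 UMIs of the 3 libraries.

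Il18bp, the soluble inhibitor of interleukin 18, was hardly seen where its ligand was. Alveolar-macrophage-like cells stood at 3.01 CPM in PBS, 3.82 in LPS and 3.17 in LPS with Reg3g. Interstitial-macrophage-like cells had 6 UMIs in 472 PBS cells, 69 in 163 LPS cells and 30 in 126 LPS with Reg3g cells, which is 2.99 CPM (1.10 to 6.50), 112 CPM (86.8 to 141) and 51.0 CPM (34.4 to 72.8). The ratio of LPS to PBS in these cells was 5.22 (4.03 to 6.72), that of LPS with Reg3g to LPS -1.13 (-1.80 to -0.49). Their Il18bp UMIs per Il18 UMI were 0.0259, 1.73 and 0.789, against 0.00443, 0.0124 and 0.00890 in alveolar-macrophage-like cells. Nonclassical-monocyte-like cells showed the same order at lower values, 1.88 CPM in PBS, 13.1 in LPS and 5.98 in LPS with Reg3g. The bounds of the interstitial-macrophage-like class depended on clustering. At Leiden resolution 2 that name covered 472 PBS, 1273 LPS and 595 LPS with Reg3g cells. How the ratios of this class for Il18bp, Il1b and the other members depend on that choice was not tested.

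Counted over the 7 genes, LPS was accompanied by more members at least 2-fold higher than lower. Of 5 members with at least 10 CPM in 1 of the libraries compared, 2 (Il1a and Il1b) were at least 2-fold higher in alveolar-macrophage-like cells and 1 (Il18) at least 2-fold lower. Among all 7826 genes at that level, 5.12% were higher and 12.6% lower by this rule, with a median log2 ratio of -0.23 against 0.36 for the 5 members. In monocyte-like cells (both classes together) 4 of 6 members, Il1a, Il1b, Il1rn and Il1r2, were at least 2-fold higher and none lower, beside 11% and 8.51% of 7658 genes. A low member can pass the 10 CPM floor through its higher library alone, so these counts are a description. The members left out were Il1r2 and Il18bp in alveolar-macrophage-like and Il18bp in monocyte-like cells.

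Of the rest of the pathway, the receptor was low. In alveolar-macrophage-like and monocyte-like cells few processing genes passed the 2-fold rule after LPS, none of them lower. Over all genes with at least 10 CPM, 5.12% and 11% were higher by that rule in these 2 classes, and 12.6% and 8.51% lower. Il1r1, the signalling receptor, stood at 1.38, 11.4 and 8.67 CPM in PBS, LPS and LPS with Reg3g alveolar-macrophage-like cells and at most 0.877 CPM in monocyte-like cells. It was 1 of 2 measured of 6 listed receptors in the former class, the other being Il1rl2 at 18.6 CPM in LPS with a log2 ratio of -0.17. None of 6 other family ligands reached 10 CPM in either class. Of 13 receptor-proximal signalling genes 11 were measured in alveolar-macrophage-like cells, where 1 was at least 2-fold higher after LPS, Irak3, a brake on the pathway (20.3 to 79.2 CPM), and 1 lower, the ubiquitin ligase gene Peli2 (log2 ratio -1.14). In monocyte-like cells 11 were measured, Irak3 was again higher (1.46) and the adaptor Tab2 lower (-1.26). Of 12 genes of processing and release, 9 were measured in alveolar-macrophage-like cells, with Ninj1, of plasma membrane rupture, and the inflammasome sensor Nlrp3 at least 2-fold higher (2.06 and 1.03) and none lower, and 10 in monocyte-like cells, with the inflammasome adaptor Pycard and Nlrp3 higher (1.24 and 1.07). Casp1, the processing protease itself, stood at 39.1 and 28.6 CPM in alveolar-macrophage-like cells, under the 2-fold rule. Serpinb1a, an inhibitor of neutrophil proteases and the 1 measured gene of 6 listed serpins and proteases in alveolar-macrophage-like cells, stood at 228 CPM in PBS and 51.4 in LPS; neither of the 2 measured in monocyte-like cells, Serpinb1a and Prtn3, passed the rule.

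Between LPS with Reg3g and LPS alone the members differed by less, and the ligand Il1b was lower in most classes. Its log2 ratio was -0.27 (-0.29 to -0.24) in alveolar-macrophage-like cells, -0.34 (-0.36 to -0.32) in classical-monocyte-like, -0.74 (-0.79 to -0.69) in nonclassical-monocyte-like, -0.90 (-1.06 to -0.73) in interstitial-macrophage-like, -0.76 (-0.90 to -0.61) in type-1 and -0.27 (-0.39 to -0.16) in type-2 conventional-dendritic-cell-like cells. It stood at 0.04 (-0.02 to 0.10) in neutrophil-like cells, 0.07 (-0.06 to 0.19) in migratory-dendritic-cell-like cells and 0.29 (0.25 to 0.32) in the set-aside cluster. Of 10 classes with a ratio, the set-aside cluster included, 6 had an interval below 0 and 2 above, the latter being the set-aside cluster and T-or-NK-like cells. Adding the set-aside cluster to the alveolar-macrophage-like cells brought their ratio to -0.14 (-0.16 to -0.11). In that class the Il1b share of cells was at background with LPS and above it with Reg3g, and the mean per lymphoid cell was 3.76 UMIs with LPS and 6.28 with Reg3g, against 6.37 and 6.78 per alveolar-macrophage-like cell. With the lymphoid mean taken off every cell the alveolar-macrophage-like ratio became -2.90 and that of monocyte-like cells -1.55. The sizes therefore rest on that correction. Since the mean taken off was higher with Reg3g, the correction could only lower both ratios, and their kept sign was fixed in advance.

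The difference was also uneven within classes. In the classical-monocyte-like cluster led by Ly6c2 and Vcan the ratios were -0.57 for Il1b, -0.54 for Il1a and -0.70 for Il1rn, and in the cluster led by Arg1 and Ccl2 they were -0.11, 0.17 and 0.08. The first cluster held 59.0% and 59.5% of the class in the LPS and LPS with Reg3g libraries, so the class difference was not accompanied by another mix of the 2 clusters. Of the alveolar-macrophage-like clusters, the one led by Tnf and Ereg had -0.60, -0.57 and -0.33 for the same genes, and the one led by Car4 and Lcn2 -0.10, -0.13 and 0.19. The mix of this class did differ. The Tnf and Ereg cluster held 22.7% of it in the LPS library and 30.7% in the LPS with Reg3g library, and the Car4 and Lcn2 cluster 44.5% and 36.1%. Summed neutrophil marker levels in classical-monocyte-like cells were 727 and 1414 CPM in these libraries, higher with Reg3g, with none of the 12 markers at 0, and their part in the result was not tested. In nonclassical-monocyte-like cells they were 655 and 579 CPM, in alveolar-macrophage-like cells 155 and 164, and in neutrophil-like cells 23910.2 and 55064, so that the neutrophil-like cells of the 2 libraries differed in their own markers.

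Of the other members, Il1a stood at a log2 ratio of -0.22 (-0.26 to -0.18) in alveolar-macrophage-like cells and 0.00 (-0.09 to 0.09) in classical-monocyte-like cells, while Il1rn was at 0.02 (-0.04 to 0.08) and -0.12 (-0.19 to -0.05). Il18 was higher in both, at 0.21 (0.16 to 0.25) and 0.31 (0.15 to 0.46). Its level was uneven between alveolar-macrophage-like clusters, whose mix differed between these libraries, and the part of that mix in the Il18 ratio was not tested. The alveolar-macrophage-like Il1a value ranged from -0.33 to -0.12 over the alternatives kept to that class. By a rule of at least 0.32 on the log2 scale, 1 of 5 measured members (Il1rap) was higher and none lower in alveolar-macrophage-like cells, where 4.8% of 7193 genes were higher and 2.47% lower. In monocyte-like cells 1 of 6 (Il1rap) was higher and 1 (Il1b) lower, beside 6.79% and 4.23% of 7369 genes. With LPS Il1rap was under the 10 CPM floor in both monocyte classes (7.16 and 5.66 CPM). It thus passed the floor in monocyte-like cells only through the library where it was higher, and its count there is a description. Nlrp3 was lower in alveolar-macrophage-like cells (178 to 125 CPM, log2 ratio -0.51) and monocyte-like cells (221 to 146 CPM, -0.60), and of the 9 processing genes measured in each class Ninj1 was the other one lower by that rule, in alveolar-macrophage-like cells (-0.32), with none higher. Of the signalling genes, 0 of 11 passed in alveolar-macrophage-like cells and 1 of 10, Tab2, was higher in monocyte-like cells (0.38). Of the receptors in alveolar-macrophage-like cells Il1rl2 was higher (0.34) and Il1r1 lower (-0.40), and Serpinb1a was higher in monocyte-like cells (0.40). Il1r1 was under 10 CPM with Reg3g, so it passed the floor only through the LPS library, where it was higher. This comparison and that of LPS with PBS share the LPS library, so their values are given side by side and not related to each other.

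**Figure D4:**
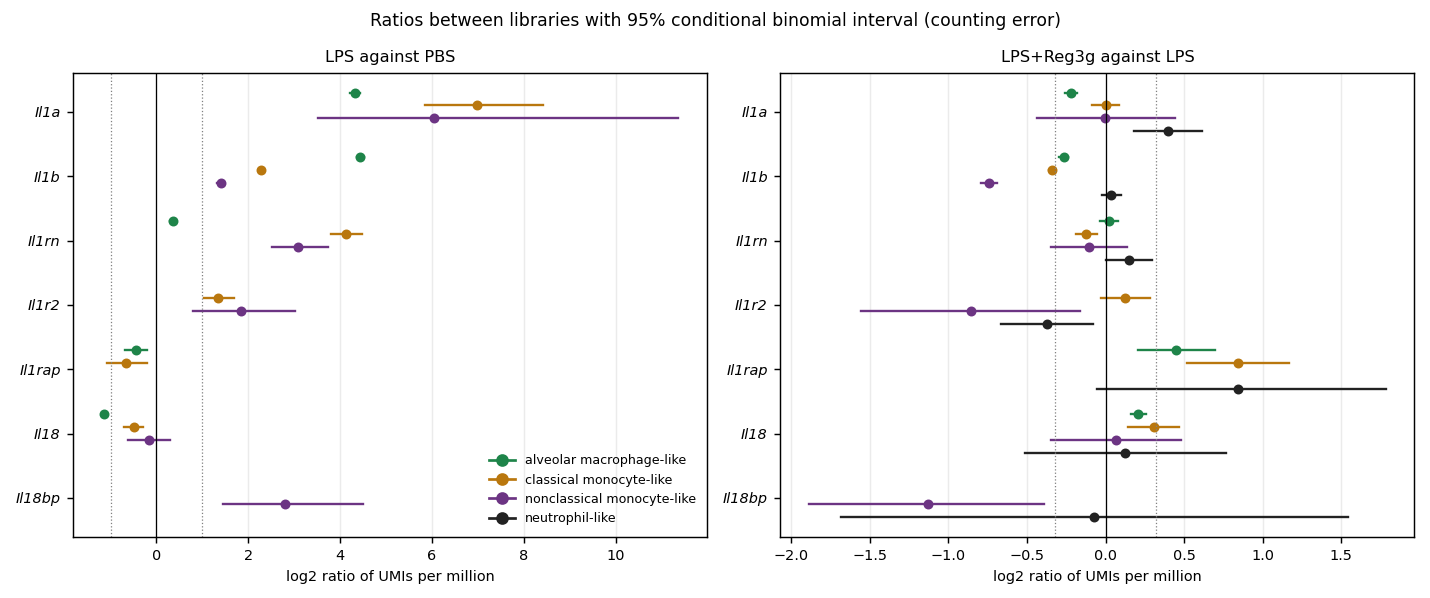
Log2 ratio between libraries for each gene in 4 classes, LPS against PBS on the left and LPS with Reg3g against LPS on the right, with 95% conditional binomial intervals; dotted lines mark 2-fold on the left and 0.32 on the right, members under 10 CPM in both libraries are not drawn, and neutrophil-like cells have no PBS level. Il1b stands left of 0 on the right-hand side in 3 of the 4 classes, and Il1rap stands right of 0 in the 3 classes drawn.

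Where each gene's UMIs lay shifted between libraries together with the cells. Alveolar-macrophage-like cells were 45.2%, 29.9% and 36.7% of the kept cells in PBS, LPS and LPS with Reg3g, and monocyte-like cells 28.8%, 45.9% and 44.4%. For Il1rn the alveolar-macrophage-like class held 91.6%, 36.8% and 45.5% of the UMIs and the monocyte-like classes 2.06%, 37.6% and 28.5%. For Il1b the values were 9.50%, 20.3% and 26.7% against 38.7%, 55.1% and 46.8%. After LPS most Il1a UMIs lay in alveolar-macrophage-like cells, with 54.3%, and in the set-aside cluster, with 25.5%, although the latter was 8.89% of cells. Class shares of a sorted library depend on the gate and on cell recovery.

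**Figure D5:**
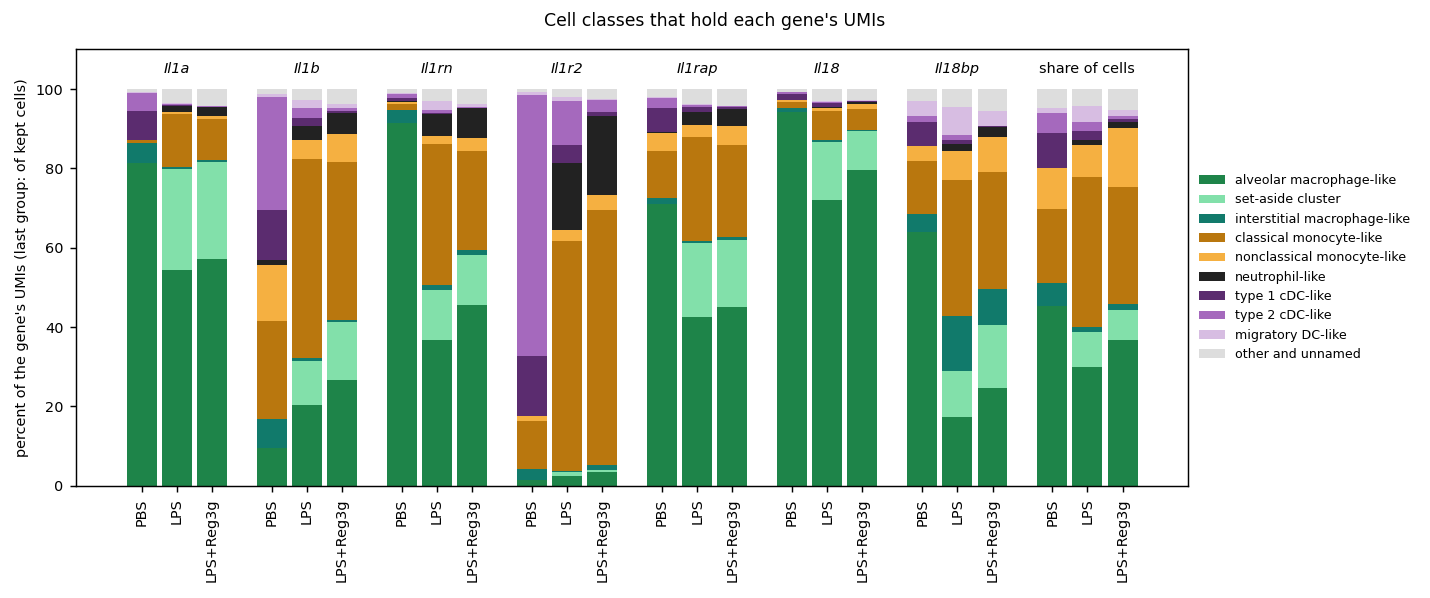
Percent of each gene's UMIs held by each class in each library, with the classes' share of kept cells at the right. Alveolar-macrophage-like cells hold 94.2% of Il18 and 91.6% of Il1rn UMIs in PBS, and type-2 conventional-dendritic-cell-like cells 65.9% of Il1r2 UMIs.

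Across 27 profiles (classes by library, log2 of CPM plus 10) and 5662 genes, the gene whose levels were most like those of Il1a was the chemokine gene Cxcl3 (Pearson's r 0.93), followed by Inhba, which encodes an activin subunit, and Sod2, the mitochondrial superoxide dismutase. The nearest to Il1b was the cytokine signalling inhibitor Socs3 (0.84), to Il1rn the chemokine gene Cxcl2 (0.90), to Il18 the peroxisomal gene Pex11a (0.94) and to Il18bp the B cell chemoattractant gene Cxcl13 (0.81). Among the members, Il1a and Il1rn had r = 0.85, Il1a and Il1b 0.59 and Il1b and Il18 -0.30. Profiles of 1 library share its depth and free RNA, and profiles of 1 class its cells, so these values are descriptions with no test.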

How the data were processed

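The samples are 3 droplet single-cell RNA libraries, 1 per group, grouped by the treatment in their labels. The authors deposited counts of UMIs for each gene in each barcode. Their tools were bcl2fastq 5.0.1, Cell Ranger 9.0.1 and Seurat 4.4.0 with mm10, per the submitters' processing notes; which gene annotation served is not said there or in the labels. Cells kept had 500 or more genes, 1000 or more UMIs and no more than 15% of UMIs from mitochondrial genes. The barcodes with the highest doublet scores (Scrublet in scanpy 1.11.5) were removed at 0.4% of barcodes per 1000 barcodes, which took out 272, 865 and 388 cells. Clustering used 2000 variable genes without the members and pathway genes, 30 principal components, 15 neighbours and Leiden resolution 1.0.

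Clusters were named from 21 marker lists by mean z-scores. The naming rule was set after the clusters had been seen and was revised over 3 tries, and 4 of the 23 clusters stayed unnamed. The members and all lists were chosen with earlier results of these data known. Genes other than members were named by list, where they passed the fold rule, or as the 3 genes most like a member. Poisson, conditional binomial and Clopper-Pearson 95% intervals were computed with scipy 1.17.1, and cover counting error only. Ratios needed more than 3 UMIs in 1 library, and counts of members needed 10 CPM. Code was tested on simulated data. The alternatives covered cell filters, doublets, clustering, thinning, scaling, the CPM floor and a background taken off.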

Additional observations from a re-analysis of the deposited data

Results flagged for a closer look

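For 5 pairs of classes a member stood on opposite sides of 0 with intervals clear of it; each class is 1 library per group, and the differences between classes were not tested. After LPS against PBS, Il18 had a log2 ratio of 2.14 in T-or-NK-like cells and -1.64 in migratory-dendritic-cell-like cells. Between LPS with Reg3g and LPS the order for Il18 was turned, at -1.95 in T-or-NK-like and 1.27 in migratory-dendritic-cell-like cells. These values rest on few Il18 UMIs in PBS, LPS and LPS with Reg3g. T-or-NK-like cells had 8, 52 and 10, and migratory-dendritic-cell-like cells 19, 18 and 14. The Il18 levels of T-or-NK-like cells, 24.7, 109 and 28.4 CPM in PBS, LPS and LPS with Reg3g, moved with the summed level of 14 alveolar macrophage markers in them, 588, 3465 and 1137 CPM, whose part in the result was not tested. Between LPS with Reg3g and LPS, Il1b stood at 0.57 in T-or-NK-like cells and -0.90 in interstitial-macrophage-like cells. The summed level of 12 neutrophil markers in T-or-NK-like cells was 408 CPM with LPS and 2224 with Reg3g, and its part was likewise not tested. In the same comparison Il1a stood at 0.40 in neutrophil-like cells and -1.42 in type-1 conventional-dendritic-cell-like cells, and Il1r2 at 1.95 in interstitial-macrophage-like cells and -0.86 in nonclassical-monocyte-like cells. The type-1 value rests on 62 Il1a UMIs with LPS and 7 with Reg3g, and the interstitial-macrophage-like value on 3 and 11 Il1r2 UMIs. The 14 alveolar macrophage markers summed to 2536 and 3659 CPM in neutrophil-like cells with LPS and with Reg3g. Their part in the Il1a ratio of those cells was not tested.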

How the results depend on the processing

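No paired analysis was possible because each group has 1 library, and for the same reason no library could be left out. The counts of members at least 2-fold higher or lower after LPS stayed within 1.5 times under each alternative run. Of members lower with Reg3g by at least 0.32 on the log2 scale, monocyte-like cells had 1 (Il1b), but 3 at Leiden resolution 2 (Il1a, Il1b and Il1rn), 3 with the lymphoid level taken off (Il1b, Il1rn and Il18bp), 2 over all cells of a library (Il1b and Il1r2) and 2 with a floor of 5 CPM (Il1b and Il18bp). Alveolar-macrophage-like cells had 0, but 1 with cells thinned to 2000 UMIs (Il1a), 2 with the lymphoid level taken off (Il1a and Il1b) and 2 over all cells of a library (Il1b and Il1r2). Of 22 member ratios 17 kept their sign under each alternative that gave a value for them. The 5 that did not were ratios of LPS with Reg3g to LPS. Over all cells of a library, which is not a value of the class, Il1a stood at 0.02 and Il1rn at 0.03, against -0.22 for Il1a in alveolar-macrophage-like cells and -0.18 and -0.26 for Il1a and Il1rn in monocyte-like cells. The monocyte-like values pool 2 classes whose mix differed: nonclassical-monocyte-like cells were 8.12% of cells with LPS and 14.8% with Reg3g. The split between these 2 classes depended on processing. In the LPS library 1057 cells were nonclassical-monocyte-like, but 366 at Leiden resolution 0.5 and 3333 with no cell filter. How the levels and ratios of either monocyte class alone depend on that split was not tested. Within classical-monocyte-like cells Il1a stood at 129 CPM in both libraries, and within nonclassical-monocyte-like cells at 24.8 and 24.7. Il1rn stood at 224 and 206 CPM in the former and 83.5 and 77.5 in the latter. With the lymphoid level taken off Il1a was 2.27 in monocyte-like cells, at Leiden resolution 2 Il1r2 was 0.07 there, and Il1rn in alveolar-macrophage-like cells lay between -0.07 and 0.10. The log2 ratio of Il1b in alveolar-macrophage-like cells was 4.24 to 4.62 for LPS to PBS and -0.31 to -0.12 for LPS with Reg3g to LPS within the class; over all cells it was 2.68 and -0.35. With the lymphoid level taken off, the second was -2.90 and the first is not given, since the PBS mean per cell was below that of lymphoid cells. Median-of-ratios scaling moved all genes by -0.19 on the log2 scale for LPS against PBS in alveolar-macrophage-like cells. Weighting cells equally kept 34 of 42 levels inside their counting interval, whereas shares of cells with a UMI kept 2 of 42 when thinned to 1000 UMIs and 1 of 42 unthinned. The set-aside cluster was added to the alveolar-macrophage-like cells as an alternative chosen after seeing the data.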
